A study of Mus musculus with 6 samples.

Results

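The genes described here are 40 genes of DNA replication and S phase, taken by gene name from the deposited table of mouse dendritic cell expression. All 40 were found, among 23398 genes in the table. They were sorted into 8 roles: origin licensing, the MCM helicase, helicase activation, primase and polymerases, the sliding clamp with its loader, single-strand binding with Okazaki fragment maturation, nucleotide supply, and chromatin assembly with recognition of hemimethylated DNA. The cells were dendritic cells grown from mouse bone marrow (BMDC), exposed for 12 hours to vehicle or to nanoparticles of calcium hydroxide, Ca(OH)2. There were 3 libraries per group, each from 1 µg of total RNA. The labels give no strain, age, sex, particle dose or culture of origin, and they do not say whether the libraries of a group came from separate cultures or animals, so p-values measure the spread between these libraries, which may be technical.

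DNA is copied once per cell cycle. In G1, the origin recognition complex with Cdc6 and Cdt1 loads the ring of MCM subunits onto DNA, and in S phase Cdc45 and the GINS complex turn that ring into a running helicase. Primase and polymerases alpha, delta and epsilon then make the new strands, held on DNA by the clamp Pcna, while ribonucleotide reductase and thymidylate enzymes supply the nucleotides. Most of these genes are transcribed in proliferating cells under E2F factors. Dendritic cells that have left the dividing precursor pool and matured are known as largely non-dividing cells.

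With nanoparticles, transcripts of nearly all steps of replication were lower. The summed level of the 40 genes was 319, 324 and 329 FPKM in vehicle libraries 1 to 3 and 135, 151 and 169.6 FPKM in nanoparticle libraries 1 to 3 (FPKM, fragments per kilobase of gene, scaled per library). All nanoparticle sums lay below all vehicle sums, at 46.9% of the vehicle mean (exact permutation test, two-sided, p = 0.1, the smallest p that 3 against 3 libraries can give, and 0.1 adjusted over the 10 sums tested). Without Pcna, the most abundant of them, the sum was 39.4% of the vehicle mean. In bulk RNA, fewer cycling cells and less of these transcripts per cell cannot be told apart.

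The fit over all genes used log2(FPKM + 1) in limma, and a gene was tested if it reached 1 FPKM in at least 3 libraries. Of the 40 genes 39 were tested, and 31 of these fell and 0 rose at a Benjamini-Hochberg adjusted p under 0.05, where 16.2% of all 10682 tested genes fell and 17.0% rose. At an unadjusted p under 0.05, too, 0 of them were higher, and limma-voom on reads recovered from the values called 0 higher. The tested genes had a median log2 change of -0.84, against -0.001 for all tested genes. As 10 of the 40 reached 1 FPKM in no nanoparticle library and 9 of these are among the 31, part of the count is built into the filter. Among the 25 genes at 1 FPKM or more in all nanoparticle libraries, 18 fell, where 12.5% of the 9420 tested genes meeting the same condition did. With no filter, all 40 were tested, 28 fell (7.46% of all genes did) and 0 rose, and the median was -0.83. Groups were fully separated for 37 of the 40, all lower with nanoparticles, against 26.2% of tested genes and 16.9% of all genes in the table separated in that direction. The nanoparticle mean was under 50% of the vehicle mean for 27 of the 40, which held for 9.36% of tested genes. Counts given by role below are to be read against these shares of all tested genes.

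**Figure D1:**
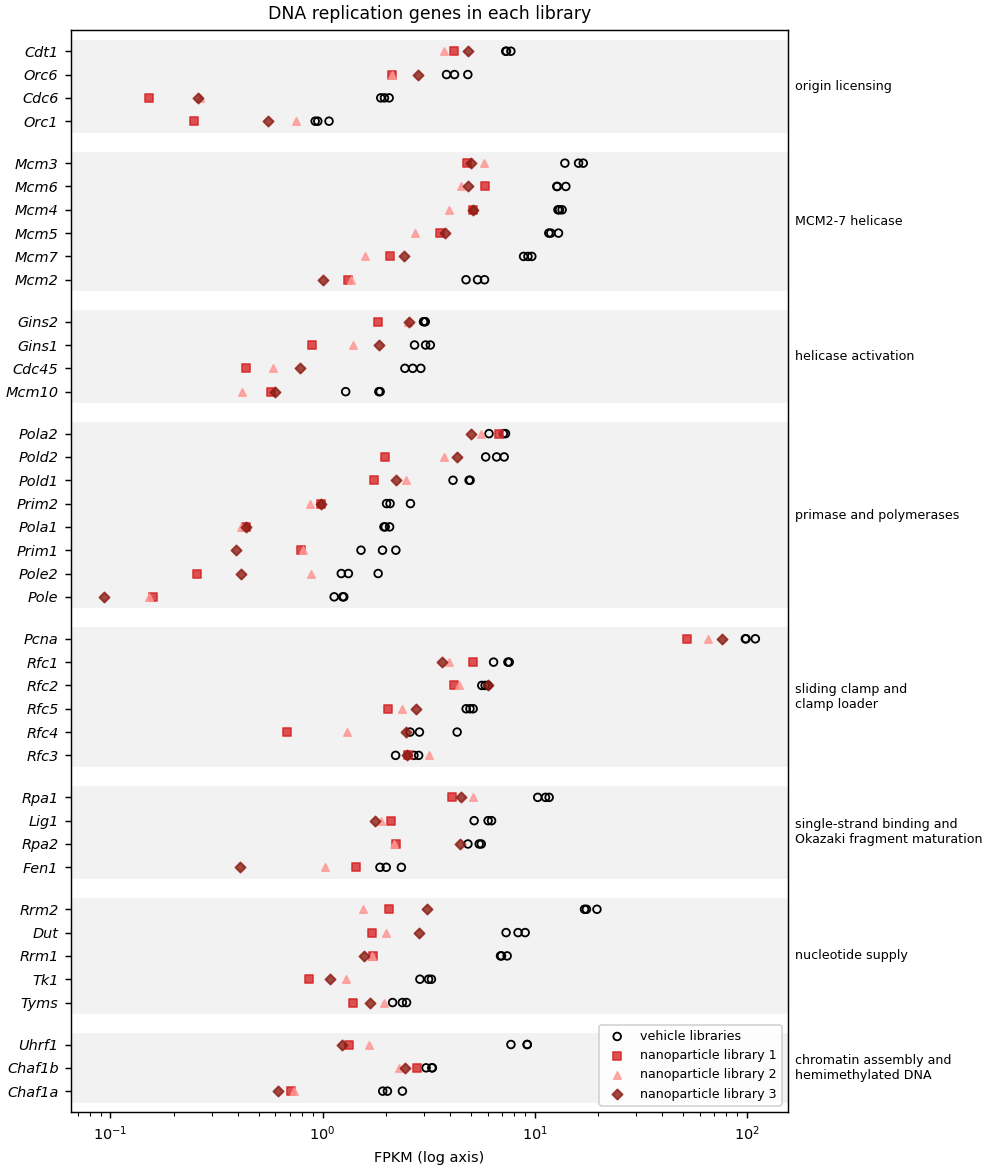
FPKM (log axis) of each of the 40 replication genes in each library, grouped by role, with open circles for the 3 vehicle libraries and filled symbols for nanoparticle libraries 1 to 3. In 37 genes all filled symbols lie left of all circles, and the exceptions are Pola2, Rfc2 and Rfc3.

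Nanoparticle library 1 stood apart from libraries 2 and 3 over all genes (r of log2 values across tested genes, which are not replicates, 0.942 and 0.928, against 0.9895 between libraries 2 and 3). For the replication genes it was the lowest of the nanoparticle libraries in 17 genes and the highest in 11. It was also the lowest by the median log2 difference from the vehicle mean, at -1.01 against -0.84 and -0.88 for libraries 2 and 3. The median level was 35.3%, 41.4% and 37.9% of the vehicle mean in nanoparticle libraries 1, 2 and 3. Without library 1, 34 genes fell and 0 rose, where 30.5% of all genes fell, and the 31 genes were all among the 34. Read totals recovered from the values were 17285805 to 18222800 in vehicle and 17794110 to 21980812 in nanoparticle libraries, and each of the 40 genes rested on at least 12 reads in every library. The scaling of the deposited values matters for the directions: with libraries set to equal read totals, the median of all tested genes moved to -0.29 and that of the replication genes to -1.07, and 39 of 40 fell (34.3% of all genes did). With libraries set to the same FPKM sum, 39 of 40 fell as well (40.8% of all genes did).

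Promoters are shown for the gene with the largest fall on the log2(FPKM + 1) scale (Rrm2), for the tested gene with the highest log2 change (Rfc3), and for a pair of genes that fell and hold an E2F word (Cdc6 and Mcm6). Each is the 250 bases before the RefSeq start on GRCm38.p6, read 5′ to 3′ on the gene strand. Capitals mark the E2F words searched for, which were TTTCCCGC, TTTGGCGC, TTTGCCGC and TTTCGCGC and their reverse complements, which may overlap each other.
Rrm2, chr12:24708004-24708253, plus strand: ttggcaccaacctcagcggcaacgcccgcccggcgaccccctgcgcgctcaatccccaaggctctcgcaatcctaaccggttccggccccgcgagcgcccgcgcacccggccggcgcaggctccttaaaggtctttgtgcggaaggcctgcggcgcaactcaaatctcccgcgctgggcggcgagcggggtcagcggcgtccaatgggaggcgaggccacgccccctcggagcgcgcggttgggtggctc
Cdc6, chr11:98907901-98908150, plus strand: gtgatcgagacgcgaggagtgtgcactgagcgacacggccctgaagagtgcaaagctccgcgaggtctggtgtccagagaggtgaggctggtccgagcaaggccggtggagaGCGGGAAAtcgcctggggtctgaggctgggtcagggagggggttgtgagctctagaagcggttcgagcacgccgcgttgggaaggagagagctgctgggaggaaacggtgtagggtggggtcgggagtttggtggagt
Mcm6, chr1:128359706-128359955, minus strand: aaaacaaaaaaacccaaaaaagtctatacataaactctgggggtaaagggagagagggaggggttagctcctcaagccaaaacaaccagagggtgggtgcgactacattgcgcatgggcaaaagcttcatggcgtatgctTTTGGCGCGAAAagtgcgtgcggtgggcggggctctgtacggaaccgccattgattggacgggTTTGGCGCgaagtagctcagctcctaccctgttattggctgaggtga
Rfc3, chr5:151651209-151651458, minus strand: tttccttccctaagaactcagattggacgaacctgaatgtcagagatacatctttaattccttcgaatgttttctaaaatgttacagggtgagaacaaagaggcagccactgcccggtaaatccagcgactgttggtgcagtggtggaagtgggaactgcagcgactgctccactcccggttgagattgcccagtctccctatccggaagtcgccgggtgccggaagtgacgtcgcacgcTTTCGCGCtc

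Mcm6 holds 3 such words, beginning 110, 106 and 47 bases before the start, and the 2 farther from the start overlap each other. Cdc6 holds 1, beginning 138 bases before the start. Rfc3 holds 1 beginning 10 bases before the start and a further word beginning at the first base after it, outside the stretch printed. Rrm2 holds none of these letters in its window. RefSeq promoters were matched for 34 of the 40 genes, 40 promoters in all of 300 bases each (250 before and 50 after the start), and 13 of them (32.5%) held an E2F word, against 3.98% of 10119 promoters of tested genes and 2.26% of all 32851. The share was 33.3% of 33 promoters of genes that fell and 28.6% of 7 promoters of the others, so genes with and without a called fall both held the word. The CCAAT box was in 57.5% of the promoters against 37.2% for tested genes, and TTTGAA, the core of the cell cycle homology region, in 10.0% against 12.3%, each on either strand. Of 138 promoters of the other pathway genes described below, 19.6% held an E2F word, 44.2% the CCAAT box and 20.3% TTTGAA. A match describes letters and is not a measured binding site.

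**Figure D2:**
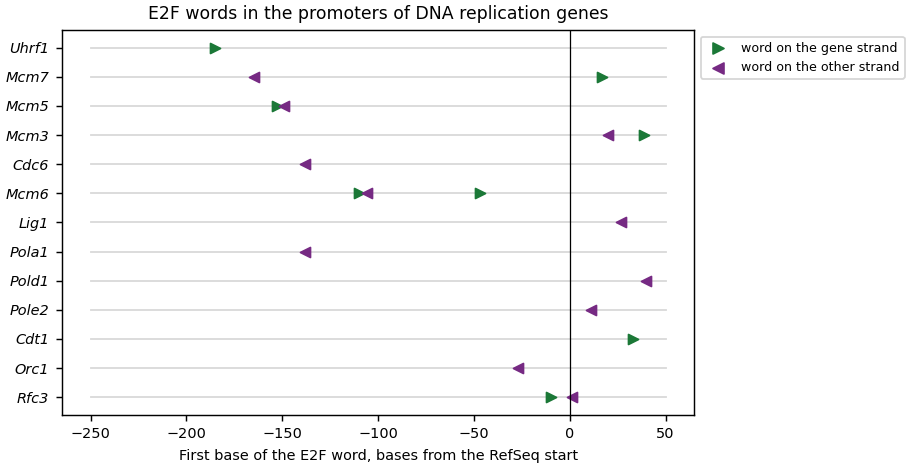
Position of each E2F word in the promoters of the 13 replication genes that hold one, in bases from the RefSeq start, with genes ordered from the lowest log2 change (Uhrf1) to the highest (Rfc3). Words lie on both strands and on both sides of the start.

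Origin licensing genes fell, the Cdc6 transcript most. Cdc6, which with the origin recognition complex loads the MCM ring, was at 1.88, 1.96 and 2.06 FPKM in vehicle libraries 1 to 3 and at 0.152, 0.266 and 0.258 FPKM in nanoparticle libraries 1 to 3. Its group means differed 8.73-fold (log2 change -1.28, SE 0.0958, limma adjusted p = 2.9e-04). Adding 1 FPKM before taking log2 makes fitted changes of genes this low smaller than their fold. Cdt1, the other loading factor, fell from 7.47 ± 0.228 to 4.25 ± 0.558 FPKM (SD, n = 3 each). Orc6, a subunit of the origin recognition complex, was at 3.84, 4.84 and 4.19 FPKM in vehicle and 2.13, 2.13 and 2.82 FPKM with nanoparticles, a separated 1.82-fold fall (log2 change -0.66, SE 0.128, limma adjusted p = 0.0096). Orc1, the largest subunit of that complex, was under the filter, with 0.923, 1.07 and 0.9499 FPKM in vehicle and 0.246, 0.747 and 0.552 FPKM with nanoparticles. Its groups were separated, but with no filter it did not pass (log2 change -0.40, SE 0.147, limma adjusted p = 0.1527).

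The 6 subunits of the MCM helicase all fell, and no nanoparticle value reached a vehicle value in any of them. Mcm7 (chromosome 5, 138164583 to 138172422, minus strand) had 8.87, 9.30 and 9.70 FPKM in vehicle libraries and 2.08, 1.58 and 2.43 FPKM in nanoparticle libraries. That is 4.58-fold lower, the lowest log2 change of the 6 at -1.77 (SE 0.128, limma adjusted p = 2.6e-04). Mcm3, the most abundant subunit on the FPKM scale, had 13.9, 17.0 and 16.1 FPKM in vehicle and 4.80, 5.78 and 5.03 FPKM with nanoparticles, 3.01-fold lower (log2 change -1.42). Mcm6, with the highest log2 change of the 6, had 12.7, 12.8 and 14.03 FPKM in vehicle and 5.84, 4.52 and 4.84 FPKM with nanoparticles, 2.60-fold lower (log2 change -1.23, SE 0.115, limma adjusted p = 6.4e-04). The fall was thus shared across the ring, with Mcm2, Mcm4 and Mcm5 at 4.32-fold, 2.77-fold and 3.61-fold. The summed level of the 6 was 68.8 ± 3.70 FPKM (SD, n = 3) in vehicle libraries and 21.6 ± 1.496 FPKM (SD, n = 3) in the others, with no overlap.

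Of the factors that turn the loaded ring into a helicase, Cdc45, Gins1 and Mcm10 fell. Cdc45 had 2.66, 2.91 and 2.45 FPKM in vehicle and 0.437, 0.586 and 0.784 FPKM with nanoparticles, 4.43-fold lower with separated groups (log2 change -1.20, SE 0.119, limma adjusted p = 7.6e-04). Mcm10, which helps to fire the loaded helicase, was 3.156-fold lower, and Gins1 2.18-fold. Gins1 lost its call without vehicle library 2 or 3 (limma adjusted p = 0.0596 and 0.0634). Gins2, a partner of Gins1 in the GINS complex, had 3.05, 2.99 and 3.03 FPKM in vehicle and 1.82, 2.54 and 2.55 FPKM with nanoparticles. The values were separated but the test was not passed (log2 change -0.29, SE 0.120, limma adjusted p = 0.1099). The ratio of Gins1 to Gins2 was 0.890 to 1.06 in vehicle and 0.487 to 0.726 with nanoparticles, given here after the values were seen and not tested.

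Primase and polymerase genes fell in 7 of 8 cases, where 16.2% of all tested genes fell. Part of this count is built into the filter. Pola1, Prim1, Prim2, Pole and Pole2 reached 1 FPKM in no nanoparticle library and were tested through their vehicle values. With no filter 5 of the 8 fell, where 7.46% of all genes did. Pola1, the catalytic subunit of polymerase alpha, had 1.95, 1.97 and 2.07 FPKM in vehicle and 0.438, 0.411 and 0.436 FPKM with nanoparticles. It was 4.66-fold lower in a narrow spread (log2 change -1.07, SE 0.0878, limma adjusted p = 3.9e-04). Pola2, the accessory subunit of the same polymerase and the most abundant gene of this group, had 7.29, 6.09 and 7.12 FPKM in vehicle and 6.82, 5.58 and 5.02 FPKM with nanoparticles. These groups overlapped and Pola2 did not pass (log2 change -0.21, 95% interval -0.53 to 0.11, limma adjusted p = 0.2798), though it did without nanoparticle library 1 (log2 change -0.31, limma adjusted p = 0.0245). The ratio of Pola1 to Pola2 lay at 0.267 to 0.324 in vehicle and 0.0642 to 0.0867 with nanoparticles, a comparison chosen after the values were seen and not tested.

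Pole, the catalytic subunit of leading-strand polymerase epsilon, had the largest fold change of the 40 genes, from 1.21 ± 0.0682 to 0.135 ± 0.0362 FPKM (SD, n = 3 each), 9.01-fold lower on 20 to 29 reads per nanoparticle library. Its log2 change on the log2(FPKM + 1) scale was -0.96 (limma adjusted p = 7.1e-04). Pole2, its partner, was 2.82-fold lower. Pold1, catalytic in polymerase delta, fell 2.18-fold, and its partner Pold2 1.97-fold. The primase subunits Prim1 and Prim2, which make the RNA starts of new strands, were 2.84-fold and 2.36-fold lower. With no filter on low values, Pole2 and Pold2 no longer passed (limma adjusted p = 0.0685 and 0.0733). Without vehicle library 1, 2 or 3 neither passed, nor did Pold2 without nanoparticle library 2 and Pole2 without nanoparticle library 3 (limma adjusted p = 0.0592 to 0.1114 for Pold2 and 0.0618 to 0.1005 for Pole2).

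The sliding clamp fell, as did 2 of the 5 subunits of its loader, and the other 3 did not pass. Pcna had 109.8, 99.2 and 98.5 FPKM in vehicle and 52.2, 66.02 and 76.2 FPKM with nanoparticles, the highest level of the 40 genes in each group. It was 1.58-fold lower with separated groups (log2 change -0.67, SE 0.161, limma adjusted p = 0.0213), and the lowest value was that of nanoparticle library 1. Without vehicle library 1, 2 or 3 or nanoparticle library 2, Pcna no longer passed (limma adjusted p = 0.0916, 0.0756, 0.0740 and 0.0604), and without nanoparticle library 1 it did (log2 change -0.52, limma adjusted p = 0.0016). The annotated pseudogenes Pcna-ps1 and Pcna-ps2 resemble it, and how shared reads were counted is not given in the sources used here.

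Rfc1 to Rfc5 form the ring that opens the clamp. Rfc1, its large subunit, and Rfc5 fell 1.69-fold and 2.07-fold, and Rfc1 lost its call without vehicle library 2 or 3 (limma adjusted p = 0.0629 and 0.0641). Rfc4 had 2.59, 2.86 and 4.31 FPKM in vehicle and 0.679, 1.30 and 2.47 FPKM with nanoparticles. It had the lowest log2 change of the group, but its wide spread left it short of the threshold (log2 change -0.82, SE 0.290, limma adjusted p = 0.0747). Rfc2 had 6.01, 5.63 and 5.84 FPKM in vehicle and 4.15, 4.42 and 6.03 FPKM with nanoparticles, where nanoparticle library 3 exceeded all vehicle libraries (log2 change -0.23, 95% interval -0.57 to 0.10, limma adjusted p = 0.2481). Rfc3 (chromosome 5, 151642756 to 151651242, minus strand) had 2.21, 2.70 and 2.84 FPKM in vehicle and 2.53, 3.18 and 2.51 FPKM with nanoparticles. Its groups overlapped (log2 change 0.06, 95% interval -0.23 to 0.36, limma adjusted p = 0.7366). Its sign was not fixed, with log2 changes of -0.19 at equal read totals, -0.28 at the same FPKM sum and -0.01 without vehicle library 1. It was the 1 gene that passed in none of the alternatives tried.

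**Figure D3:**
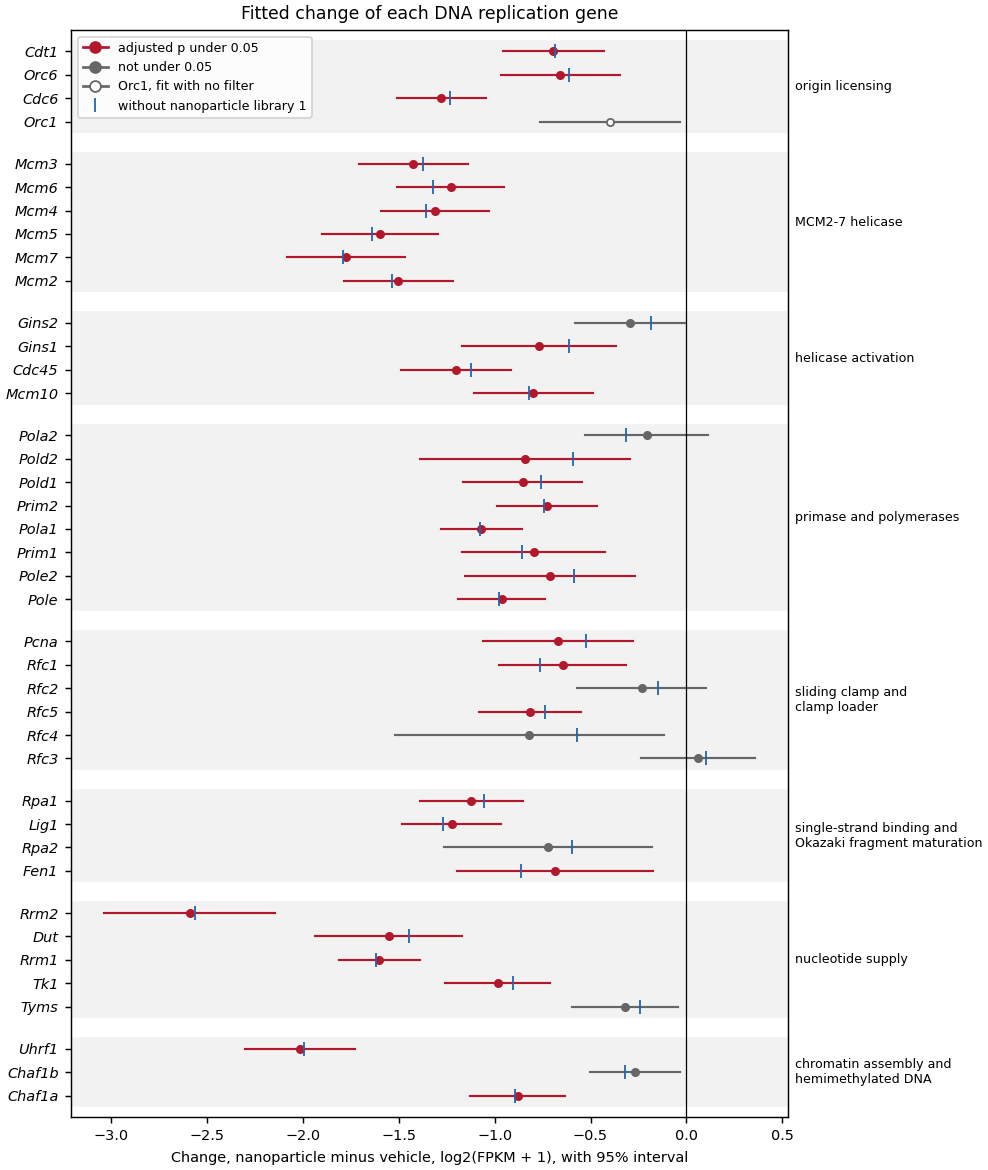
Fitted change (nanoparticle minus vehicle, on the log2(FPKM + 1) scale) of each replication gene with its 95% interval, red where the adjusted p is under 0.05, a blue tick for the value without nanoparticle library 1, and an open circle for Orc1 from the fit with no filter. Rrm2 and Uhrf1 lie farthest to the left, at -2.59 and -2.01, and Rfc3 alone lies right of 0 under the deposited scaling, at 0.06, against -0.19 at equal read totals.

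Single-strand binding and Okazaki fragment genes were lower as well. Rpa1, the large subunit of the protein that coats single strands, fell 2.43-fold, from 11.1 ± 0.695 to 4.57 ± 0.545 FPKM (SD, n = 3 each, limma adjusted p = 7.6e-04). Rpa2, its partner, had 4.85, 5.48 and 5.60 FPKM in vehicle and 2.21, 2.18 and 4.46 FPKM with nanoparticles. Library 3 was close to vehicle, and the test fell just short (log2 change -0.72, SE 0.225, limma adjusted p = 0.0507), though it was passed without nanoparticle library 1 (limma adjusted p = 0.0468). Lig1, the ligase that seals Okazaki fragments, had 6.03, 6.26 and 5.18 FPKM in vehicle and 2.11, 1.88 and 1.76 FPKM with nanoparticles, 3.04-fold lower (log2 change -1.22, SE 0.107, limma adjusted p = 5.0e-04). Fen1, the nuclease that trims their flaps, had 1.87, 2.35 and 2.00 FPKM in vehicle and 1.44, 1.02 and 0.407 FPKM with nanoparticles. It passed narrowly (log2 change -0.68, SE 0.211, limma adjusted p = 0.0495) and kept its call in 4 of the 15 alternatives. With 1 library left out it passed without nanoparticle library 1 (limma adjusted p = 0.0043) and not without any of the other 5.

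Nucleotide supply had the lowest summed level relative to vehicle of the 8 roles, 38.9 ± 0.985 FPKM (SD, n = 3) in vehicle libraries against 8.84 ± 1.31 FPKM (SD, n = 3), or 22.7%. Rrm2 (chromosome 12, 24708241 to 24714146, plus strand), the small subunit of ribonucleotide reductase, had 17.2, 17.5 and 19.7 FPKM in vehicle and 2.06, 1.55 and 3.11 FPKM with nanoparticles. It was 8.11-fold lower (log2 change -2.59, SE 0.185, limma adjusted p = 2.5e-04), the lowest log2 change of the 40. Rrm1, the large subunit, fell 4.25-fold, from 7.10 ± 0.279 to 1.67 ± 0.0893 FPKM (SD, n = 3 each, limma adjusted p = 1.1e-04). Dut, which removes dUTP, and Tk1, which salvages thymidine, fell 3.79-fold and 2.87-fold. Tyms, which makes thymidylate, had 2.49, 2.38 and 2.14 FPKM in vehicle and 1.40, 1.96 and 1.68 FPKM with nanoparticles. Its groups were separated by a small gap and it did not pass (log2 change -0.32, SE 0.115, limma adjusted p = 0.0763). A pseudogene, Tyms-ps, resembles it.

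In chromatin assembly, Uhrf1 and Chaf1a fell. Uhrf1, which binds hemimethylated DNA behind the fork and brings in the maintenance methyltransferase Dnmt1, had 7.73, 9.23 and 9.22 FPKM in vehicle and 1.34, 1.66 and 1.23 FPKM with nanoparticles. That was 6.19-fold lower (log2 change -2.01, SE 0.119, limma adjusted p = 1.3e-04). Chaf1a and Chaf1b are subunits of the histone chaperone CAF-1. Chaf1a fell 3.07-fold, while Chaf1b had 3.08, 3.28 and 3.29 FPKM in vehicle and 2.77, 2.28 and 2.46 FPKM with nanoparticles. Chaf1b was separated but did not pass (log2 change -0.27, SE 0.0969, limma adjusted p = 0.0788), and did without nanoparticle library 1 (limma adjusted p = 0.0105).

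**Figure D4:**
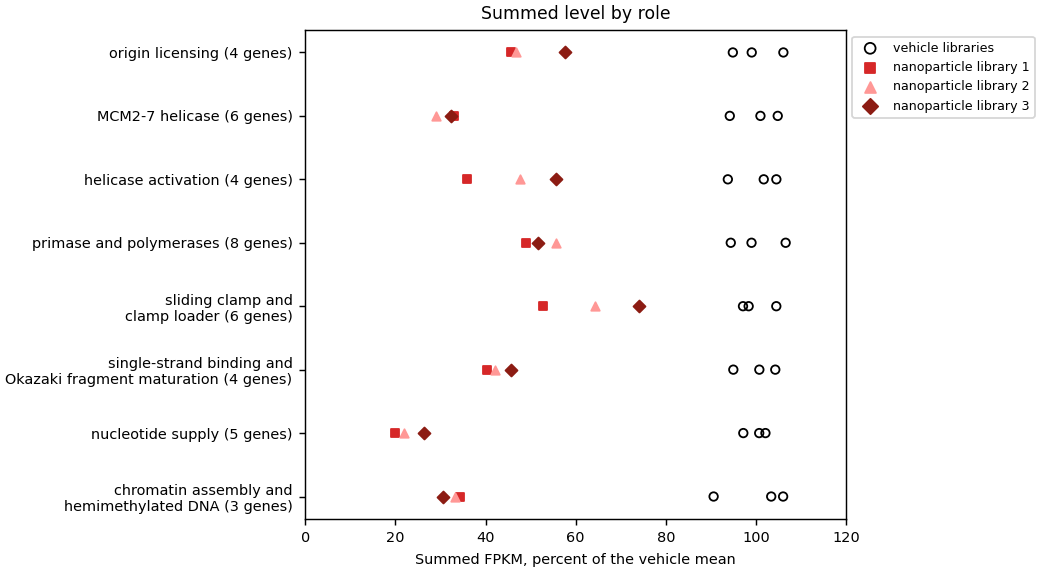
Summed FPKM of each role in each library as a percent of the vehicle mean, with open circles for vehicle and filled symbols for nanoparticle libraries 1 to 3. The groups are apart in all 8 roles, with nanoparticle means from 22.7% for nucleotide supply to 63.8% for the clamp and its loader.

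Other genes of the pathway, 131 in 5 lists, were read from the same fit, and 113 were tested. Of these 54 fell and 10 rose, with a median log2 change of -0.43, beside the 16.2% and 17.0% of all tested genes that fell and rose, shares against which each list's counts are to be read. Without nanoparticle library 1, 65 fell and 16 rose, where 30.5% of all tested genes fell and 34.3% rose. Regulators of S phase entry fell in 17 of 27 cases and rose in 2 (median -0.56). Ccna2, the S phase cyclin A, had 7.49, 8.80 and 9.13 FPKM in vehicle and 0.270, 0.503 and 1.07 FPKM with nanoparticles, 13.8-fold lower (log2 change -2.58, limma adjusted p = 2.9e-04). E2f2, an activating E2F, fell from 4.41 ± 0.349 to 0.516 ± 0.361 FPKM (SD, n = 3 each, limma adjusted p = 9.3e-04). Its level was 0.1004 FPKM in nanoparticle library 1, below the 0.693 and 0.755 FPKM of libraries 2 and 3. E2f1, another activating E2F, stood at 9.48 ± 0.432 and 9.70 ± 1.65 FPKM (SD, n = 3 each), and E2f4, a repressive E2F, at 19.4 ± 0.317 and 18.6 ± 1.54 FPKM, neither past the test (limma adjusted p = 0.9233 and 0.6840). The further E2Fs E2f8 and E2f6 and the RB family genes Rbl2 and Rb1 fell (log2 change -1.10, -0.68, -0.74 and -0.37, limma adjusted p = 0.0013, 0.0047, 0.0080 and 0.0420). Rb1 lost its call without any 1 of the vehicle libraries (limma adjusted p = 0.1173 to 0.1625). Mybl2, Tfdp1 and Tfdp2 fell too (limma adjusted p = 6.6e-04 to 0.0082). E2f3, Rbl1, Lin9, Lin52 and Lin54 did not pass (limma adjusted p = 0.1037 to 0.7957). The genes of this list that rose were E2f5, a repressive E2F, and Lin37, a subunit of the DREAM repressor complex. E2f5 went from 5.97 ± 0.898 to 18.7 ± 8.98 FPKM (SD, n = 3 each, limma adjusted p = 0.0137), its 3 nanoparticle libraries at 29.1, 14.1 and 12.96 FPKM, and Lin37 was 1.56-fold higher (limma adjusted p = 0.0100). Among these regulators the calls depended on scaling: at equal read totals Lin37 no longer passed (log2 change 0.26) and E2f4 fell by 0.39 on the log2 scale, and at the same FPKM sum E2f5 no longer passed either (log2 change 1.00, limma adjusted p = 0.0600). E2f5 also lost its call without vehicle library 1 or 2 (limma adjusted p = 0.0592 and 0.0502), and Lin37 without vehicle library 1 (limma adjusted p = 0.0517).

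Other fork, origin and clamp-loading factors fell in 11 of 28 cases and rose in 0 in limma, where 16.2% of all tested genes fell and 17.0% rose. The count of rises was also 0 at an unadjusted p under 0.05 and 0 in limma-voom. Without nanoparticle library 1, 13 fell and 3 rose, the latter being Pole4, Mcmbp and Rnaseh2a (limma adjusted p = 0.0026, 0.0113 and 0.0151). Clspn, the fork protein claspin, was 17.7-fold lower (2.73 ± 0.136 to 0.154 ± 0.0584 FPKM, SD, n = 3 each, limma adjusted p = 1.2e-04), and Dna2, a helicase and nuclease, 3.66-fold. Other nucleotide enzymes fell in 9 of 25 cases and rose in 3, or 11 and 6 without nanoparticle library 1. Cad, which starts pyrimidine synthesis, fell 5.57-fold and the folate enzyme Mthfd1 2.20-fold. Among the 3 that rose was Cmpk2, a mitochondrial nucleotide kinase known as interferon-inducible, from 1.42 ± 0.195 to 205 ± 164 FPKM (SD, n = 3 each, limma adjusted p = 3.8e-04). Its nanoparticle libraries 1 to 3 stood at 394, 104.9 and 115 FPKM, all far above vehicle. Mthfd2, a mitochondrial folate enzyme, rose 1.88-fold (limma adjusted p = 0.0036). Samhd1, which breaks down deoxynucleotides and so acts against the supply enzymes, rose as well, from 38.9 ± 3.10 to 70.5 ± 4.81 FPKM (SD, n = 3 each, limma adjusted p = 0.0023), a call not kept at the same FPKM sum (log2 change 0.38, limma adjusted p = 0.0651).

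Other replication-coupled chromatin genes fell in 8 of 14 cases and rose in 3. The histone chaperone paralogs Asf1a and Asf1b moved in opposite directions, under both other scalings too: Asf1b fell from 8.68 ± 0.735 to 1.17 ± 0.134 FPKM and Asf1a rose from 2.52 ± 0.103 to 6.76 ± 0.151 FPKM (SD, n = 3 each, limma adjusted p = 8.4e-05 and 2.8e-04). Cbx5, a heterochromatin protein, fell 3.43-fold. The histone acetyltransferase Hat1 rose 1.64-fold (limma adjusted p = 0.0088), but did not pass at equal read totals (log2 change 0.34) or at the same FPKM sum (log2 change 0.23), nor without vehicle library 2 (limma adjusted p = 0.0504). Checkpoint and fork repair genes fell in 9 of 19 cases and rose in 2, where 16.2% of all tested genes fell and 17.0% rose. Cdkn1a, the p21 inhibitor of cyclin-dependent kinases and of Pcna, rose from 138 ± 0.581 to 227 ± 31.6 FPKM (SD, n = 3 each, limma adjusted p = 0.0105), with all nanoparticle libraries above vehicle. It did not pass at equal read totals (log2 change 0.36, limma adjusted p = 0.0615) or at the same FPKM sum (log2 change 0.24), nor without any 1 of the vehicle libraries (limma adjusted p = 0.0533 to 0.0582). Rad9a, a subunit of a checkpoint clamp, rose 1.37-fold (limma adjusted p = 0.0361), a call lost under both other scalings, with a log2 change of 0.11 at equal read totals and -0.006 at the same FPKM sum. It was lost too without vehicle library 1 or 3 or nanoparticle library 2 or 3 (limma adjusted p = 0.0600 to 0.1506).

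**Figure D5:**
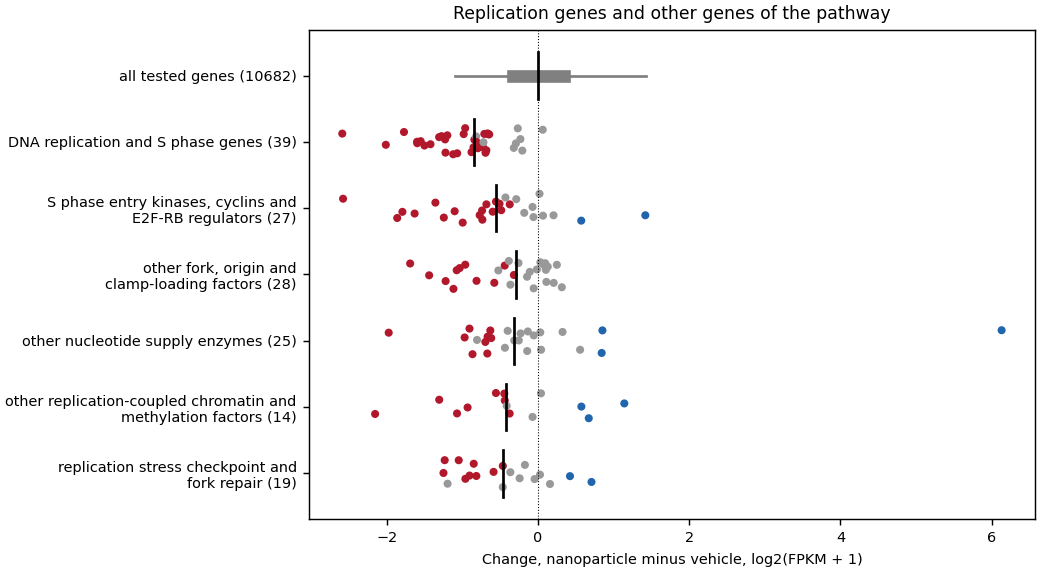
Fitted change on the log2(FPKM + 1) scale of each tested gene of the replication set and of the 5 other lists, red for falls and blue for rises past the threshold, with the median as a black bar and the range of all tested genes (5% to 95%, thick part 25% to 75%) in grey. The medians are -0.84 for the replication genes and -0.29 to -0.56 for the other lists, beside -0.001 for all tested genes.

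The dendritic cell label was checked against markers. Of 14 dendritic cell markers 12 had a mean of at least 1 FPKM in each group, with Itgax, Cd74 and H2-Ab1 among them and Flt3 under 0.1 FPKM in all libraries. Their sum was 6167 to 6610 FPKM in vehicle and 3563, 7256 and 7889 FPKM in nanoparticle libraries 1 to 3. Cd74, H2-Aa and H2-Ab1 made up most of that sum, and members went in both directions. Cd209a was at 5.17 to 6.21 FPKM in vehicle and 0 to 0.0763 FPKM with nanoparticles, and Ciita at 14.5 to 16.7 FPKM and 4.47 to 7.43 FPKM. Ccr7 was at 1.75 to 2.62 FPKM in vehicle and 105 to 124 FPKM with nanoparticles, and Irf8 at 8.47 to 8.82 FPKM and 18.4 to 24.1 FPKM. The summed level of 10 markers of marrow progenitors, which divide, was 8.55 to 9.93 FPKM in vehicle and 2.30 to 4.38 FPKM with nanoparticles. Of these 10, 3 had a vehicle mean of at least 1 FPKM, among them Cd34 (4.03, 4.68 and 4.17 FPKM in vehicle and 0.0168, 0.671 and 0.392 FPKM with nanoparticles). The granule genes Mpo, Elane and Prtn3, and also Ms4a3, were at 0 in all vehicle libraries and at most 0.307 FPKM with nanoparticles. Ctsg was at 0, 0 and 0.139 FPKM in vehicle libraries 1 to 3 and at 0 with nanoparticles. Cd34 and Gata2 made up most of the difference in the progenitor sum. Kit was at 1.23 to 1.35 FPKM in vehicle and 1.09, 0.753 and 0.710 FPKM in nanoparticle libraries 1 to 3. Cebpe was at 0.647 to 0.772 FPKM in vehicle and 0.247, 0.536 and 1.09 FPKM in nanoparticle libraries 1 to 3, the last above all vehicle libraries. Macrophage markers summed to 1130 to 1284 FPKM in vehicle and 1011 to 1231 FPKM with nanoparticles. Neutrophil markers summed to 265 to 299 FPKM in vehicle and 179.7 to 253 FPKM with nanoparticles, with members in both directions: Mmp8 was at 230.2 to 259 FPKM in vehicle and 129 to 133 FPKM with nanoparticles, and S100a8 at 33.4 to 36.0 FPKM and 50.1 to 109 FPKM. Mast cell and basophil markers summed to 3.93 to 6.16 FPKM and 10.3 to 26.1 FPKM, and here Hdc was at 0.196 to 0.474 FPKM in vehicle and 6.69 to 24.1 FPKM with nanoparticles, while Gata2, also in the progenitor list, was at 2.38 to 3.22 FPKM and 0.817 to 1.71 FPKM. Erythroid and lymphoid markers summed to under 1 FPKM in every library. The part of these other cells in the result was not tested.

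Some values may be affected by exons that overlap those of neighbours, and how reads there were counted is not known. Exons of 15 of the 40 genes overlap those of another gene in GENCODE M21, and for 6 of them (Orc6, Mcm7, Rfc2, Rfc4, Rfc5 and Fen1) the neighbour, on the opposite strand, had a mean of at least 20 FPKM. The labels do not state strand-specific counting, so reads in the overlaps cannot be told apart and these 6 values are uncertain. So are those of genes that share much of their exons with a neighbour near their own level: Gins2 shares 2758 of 4097 exon bases with Gse1 (mean 1.93 FPKM) and Chaf1a 4648 of 8854 with Ubxn6 (mean 2.71 FPKM), both on the opposite strand. Cdc45 is uncertain too. It shares 209 of 3506 exon bases with Ufd1 (mean 9.3 FPKM) on the opposite strand and rested on 25 to 53 reads in the nanoparticle libraries. The ratios of Gins1 to Gins2 carry the limit of Gins2.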

How the data were processed

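RNA of 3 vehicle and 3 nanoparticle libraries was analysed, grouped by the titles and treatment labels. The authors deposited 2 tables whose 140388 values are identical, taken here as FPKM, a unit inferred from the values since no header or label names it. Per the submitters' processing notes the tools were CASAVA, STAR 2.5, HTSeq, edgeR 3.16.5 and DESeq2 2, and the builds mm10 and hg19, with no role given. Multiplied by GENCODE M21 exon length (GRCm38) and 1 scale per library, 95.9% to 96.2% of deposited FPKM values above 0 came out as whole reads (within 0.02), and so did all values of 39 of the 40 replication genes (not Pola2). For 815 genes the shortest length giving whole reads was taken instead, so read totals are approximate. How the authors scaled libraries is not given in the sources used here, and per unit of their scale vehicle libraries held 0.872 to 0.888 and nanoparticle libraries 1.09 to 1.14 reads, so directions depend on it.

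The fit took genes reaching 1 FPKM in 3 or more libraries, on log2(FPKM + 1) with limma 3.58.1 in R 4.3.3 (group as the single term, eBayes with a trend, Benjamini-Hochberg adjustment, threshold 0.05), a script first tested on simulated data. Exact permutation tests of sums used scipy 1.17.1, and matplotlib 3.10.9 drew the figures. Replicates were no duplicates (chi-square per degree of freedom at least 2.9). Alternatives were 2 pseudocounts, 2 filters, a replicate block, no trend, 2 scalings, each library left out, and limma-voom on recovered reads, added after the data were seen. The genes and lists were chosen with earlier results of these data known. Values per library are given, for each role, for the genes with the lowest and highest log2 change, for the most abundant gene of roles with at least 6, and for every gene not tested, not past the threshold or with overlapping groups. The other lists are represented by their 2 largest falls and rises past the threshold and by E2F, RB and DREAM genes. Samhd1, Pole4, Mcmbp, Rnaseh2a and Rbbp4 are named outside this rule. Kmt5a, the remaining rise of the chromatin list, had a log2 change of 0.57 (limma adjusted p = 0.0414). It did not pass at equal read totals (log2 change 0.24, limma adjusted p = 0.2529). The falls of the checkpoint and fork repair list are not reported here by gene. Counting error sets the precision of low values.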

Additional observations from a re-analysis of the deposited data

How the results depend on the processing

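Of the 31 replication genes that fell, 25 did so in every one of the 15 alternatives in which they were tested, and the other 6 (Fen1, Pold2, Pole2, Pcna, Gins1 and Rfc1) lost the call in at least 1, while 0 replication genes rose in any. With 1 library left out, the count that fell ran from 25 to 34, the count that rose stayed at 0, and the median log2 change ran from -0.94 to -0.82. The median was -1.37 with a pseudocount of 0.1 and -1.05 with 0.5, since a smaller pseudocount shrinks low genes less, -1.39 with limma-voom on recovered reads, -1.14 with libraries at the same FPKM sum and -1.07 at equal read totals.

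Over all tested genes, 863 rose and 4416 fell at the same FPKM sum, and 1096 and 3695 at equal read totals, in place of 1817 and 1733. The median of all tested genes lay at -0.39 and -0.29 under these scalings. Leaving out 1 library gave 1114 to 3660 genes higher and 1027 to 3263 lower, the largest counts without nanoparticle library 1. Of the other pathway genes, 3 rose at the same FPKM sum and 5 at equal read totals in place of 10, and 5 to 16 rose and 38 to 65 fell with 1 library left out. Rad9a, called higher, had a log2 change of -0.006 at the same FPKM sum, and Rbbp4, not called at 0.04, fell there by 0.39 on the log2 scale. 

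Whether libraries with the same number pair cannot be settled here, as all these correlations were weak. The correlation of their deviations from the group means was 0.07, 0.11 and -0.06 for numbers 1 to 3. Vehicle libraries 1 and 2 correlated best with their own number, library 2 only narrowly (0.113, against 0.108 with nanoparticle library 3). Vehicle library 3 correlated better with nanoparticle library 1 than with its own number. With the replicate block 30 replication genes fell at a median of -0.84, with Fen1, Pcna and Pole2 lost and Rfc4 and Rpa2 gained, and 1451 genes rose and 1334 fell. The number of libraries, 3 per group, limits all calls, and low read numbers limit genes such as Pole and Cdc6.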
